A study of Rattus norvegicus with 2 samples.

Results

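The genes of serotonin uptake, breakdown and signalling were followed across 2 arrays of rat lung RNA. They were the serotonin transporter *Slc6a4*, the noradrenaline transporter *Slc6a2*, the organic cation transporter *Slc22a3*, the monoamine oxidases *Maoa* and *Maob*, the synthetic enzyme *Tph1* and the receptors *Htr1b*, *Htr2a* and *Htr2b*. A probe set, the group of short probes that reports 1 transcript on these arrays, was taken when it was no control and the platform annotation gave it exactly 1 symbol, which had to be one of these 9. This gave 11 probe sets for 8 genes, out of 20826 probe sets with 1 symbol for 14217 genes. *Htr2a* had 4 probe sets and the other 7 genes had 1 each. No probe set was matched to *Tph1*, which is not analysed here.

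Total lung RNA was hybridised to Affymetrix Rat Genome 230 2.0 arrays, 1 array by each of 2 experimenters, to ask how well global expression values repeat. The groups are therefore experimenter 1 and experimenter 2, named in the order of the numbers in the sample titles. The labels give lung as the tissue of both and no treatment; they do not say which strain, age, sex or genotype was used, whether animals were pooled, or whether both arrays came from 1 lung. The values are log2 values made by RMA (robust multi-array average), so a difference of 1 is 2-fold, and every difference below is experimenter 2 minus experimenter 1. With 1 array per experimenter there was no replicate error, no test could be made and no gene can be called changed.

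Serotonin is a vasoactive amine that reaches the lung in venous blood, and removing it from the circulation is one of the known metabolic tasks of the pulmonary endothelium. The serotonin transporter brings it into the cell, and monoamine oxidase on the outer mitochondrial membrane then deaminates it to an aldehyde that aldehyde dehydrogenases oxidise further. Serotonin that is not cleared acts on receptors of smooth muscle, endothelium and platelets, which makes this system a long-studied part of pulmonary vascular biology.

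Signals were bright for both monoamine oxidases and dim for the receptors, so the sequences before the starts of these enzymes and of *Htr1b* and *Htr2b* are shown. The RefSeq tables of build GRCr8 held a promoter window for 6 of the 9 genes: *Maoa*, *Maob*, *Slc22a3*, *Tph1*, *Htr1b* and *Htr2b*. Each line gives the 250 bases before the RefSeq start, from 5′ to 3′ on the gene's strand, and capitals mark the GC box core GGGCGG or its reverse complement CCGCCC.
Maoa, chrX:8681373-8681622, minus strand: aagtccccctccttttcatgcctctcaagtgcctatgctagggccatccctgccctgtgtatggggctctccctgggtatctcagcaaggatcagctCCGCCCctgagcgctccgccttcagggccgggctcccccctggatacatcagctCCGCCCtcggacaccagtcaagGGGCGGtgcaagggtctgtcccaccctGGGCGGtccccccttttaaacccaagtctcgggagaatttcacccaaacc
Maob, chrX:8490155-8490404, plus strand: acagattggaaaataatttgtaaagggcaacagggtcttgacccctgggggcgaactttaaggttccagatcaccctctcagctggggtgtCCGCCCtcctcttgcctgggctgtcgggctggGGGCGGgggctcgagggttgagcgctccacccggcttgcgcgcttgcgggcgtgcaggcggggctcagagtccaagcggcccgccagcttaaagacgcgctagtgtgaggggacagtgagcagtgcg
Htr1b, chr8:91414816-91415065, minus strand: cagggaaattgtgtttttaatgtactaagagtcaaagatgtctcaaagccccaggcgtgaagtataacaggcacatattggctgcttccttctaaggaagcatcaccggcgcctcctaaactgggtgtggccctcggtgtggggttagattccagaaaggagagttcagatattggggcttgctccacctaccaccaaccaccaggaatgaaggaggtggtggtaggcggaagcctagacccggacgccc
Htr2b, chr9:94204088-94204337, minus strand: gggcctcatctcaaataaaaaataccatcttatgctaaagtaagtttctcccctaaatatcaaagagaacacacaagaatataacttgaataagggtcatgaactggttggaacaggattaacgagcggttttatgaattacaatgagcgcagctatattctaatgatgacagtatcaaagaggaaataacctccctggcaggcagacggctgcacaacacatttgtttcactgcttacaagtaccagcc

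The *Maoa* window held 4 GC box cores and the *Maob* window 2, counted on both strands. Of all 33465 windows of the same length, 30.5% held at least 1 such core, 14.8% at least 2 and 3.67% at least 4. The *Tph1* window also held 2, and the windows of *Slc22a3*, *Htr1b* and *Htr2b* held 0. The share of G and C was 62.4% for *Maoa*, 63.6% for *Maob*, 54.4% for *Tph1*, 52.4% for *Htr1b*, 48.8% for *Slc22a3* and 39.6% for *Htr2b*, against a median of 51.2% over all windows. The sequence TATAAA occurred on neither strand of the 6 windows and in 12.9% of all windows. The first bases from the *Maoa* start in RefSeq are ATG, so its window may be placed by a transcript model that begins at a start codon. Whether this ATG is the start codon was not checked. *Maob* and *Maoa* are next to each other among the protein-coding genes of chromosome X. These matches describe the letters only.

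On the array of experimenter 1 the 31042 probe sets besides controls had a median of 6.32 and quartiles of 4.42 and 8.22, and on that of experimenter 2 a median of 6.28 and quartiles of 4.37 and 8.18. The 6 lung epithelial markers checked (*Sftpc*, *Sftpb*, *Sftpa1*, *Scgb1a1*, *Ager* and *Hopx*) measured between 12.70 and 14.44 on both arrays. The gap between the 3′ and 5′ control probe sets, which widens as labelled RNA shortens, was 2.15 and 2.71 for *Actb*, 0.30 and 0.26 for *Gapdh* and 1.13 and 1.36 for *Hk1*, for experimenters 1 and 2. Its part in the differences below was not tested.

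For each probe set the percentile is the share of the 31042 probe sets on the same array with a lower value. It ranks signals, not transcripts, because probe sets differ in how strongly they bind, so it cannot order the genes by their RNA. RMA also gives no detection call. A rough scale of dim signals was taken from 29 genes known mainly from testis, eye, pituitary, pancreas or kidney, whose medians were 4.14 and 4.09. One of them, *Cela1*, an elastase, measured 9.32 and 9.06, so the scale is not a background limit.

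Among the transporters, *Slc6a4*, which carries serotonin into the cell with sodium and chloride, measured 9.04 for experimenter 1 and 9.05 for experimenter 2. These values were above 85.0% and 85.5% of the probe sets on the arrays and above 28 of the 29 genes of other tissues on each. The difference of 0.013, or 1.01-fold, was small, and 4.48% of all probe sets differed by less. *Slc22a3*, a low-affinity carrier of serotonin, noradrenaline and histamine that needs no sodium, measured 5.78 and 5.64. Its percentiles were 43.1 and 41.8, under the median of both arrays, and its difference was -0.14. *Slc6a2*, which carries noradrenaline back into sympathetic nerve endings and is also known from lung endothelium, measured 4.88 and 4.31. Its percentiles were 31.3 and 24.2, and its difference of -0.57, or 1.49-fold lower, was the widest of the 11. *Slc6a2* was above 21 and 16 of the 29 genes of other tissues, so presence and absence of its RNA cannot be told apart. Thus the 2 values of the serotonin transporter lay close together at a bright signal, while the noradrenaline transporter was dim on both arrays and 1.49-fold apart. With 1 difference per gene, these values do not rank the genes by how well they repeat.

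The enzymes that degrade the amines had bright signals on both arrays. *Maoa*, the form that prefers serotonin and noradrenaline, measured 10.06 on each, above 93.4% and 93.5% of probe sets. Its difference was 0.0019, and 0.873% of all probe sets differed by less. *Maob*, the form that prefers phenylethylamine, measured 10.37 and 10.58, at percentiles 95.1 and 96.0, and its difference was 0.21, or 1.15-fold higher for experimenter 2. Both lay above all 29 genes of other tissues on both arrays. The *Maoa* probe set carries the suffix _s_at, which marks probes shared by several transcripts, so its value may hold signal from more than 1 transcript.

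The receptors were dim throughout, and all 6 of their probe sets lay below the 28th percentile of either array. *Htr2b*, a receptor coupled to Gq that is known from pulmonary arteries and heart valves, measured 4.56 and 4.55, at percentiles 27.0 and 27.5, and differed by -0.013, which turned to 0.022 or more under each rescaling of the arrays. It was above 17 of the 29 genes of other tissues on each array. *Htr1b*, a receptor coupled to Gi that is known to contract pulmonary arteries, measured 4.49 and 3.97. Its percentiles were 26.0 and 19.2, and its difference was -0.53, or 1.44-fold lower for experimenter 2. At these signals presence and absence of the receptor RNA cannot be told apart.

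*Htr2a*, a Gq-coupled receptor of smooth muscle and platelets, was read by 4 probe sets that did not give 1 answer. Probe set 1369124_at measured 4.42 and 4.29, a difference of -0.13. Probe set 1387752_s_at measured 3.85 and 4.33, a difference of 0.48 upwards. Its suffix, like that of the *Maoa* probe set, marks probes shared by several transcripts. The other two were near the bottom of the arrays: 1369894_at measured 3.12 and 2.68, and 1369125_at measured 2.998 and 2.73, with differences of -0.44 and -0.27. So 3 probe sets of the gene were lower for experimenter 2 and 1 was higher, and the differences spanned 0.92. Among the 290 genes with 4 probe sets the median span was 0.58, and 84.5% had a smaller span than *Htr2a*; 83.4% of these genes had probe sets of both signs. The mean over the 4 probe sets was 3.60 and 3.51, a difference of -0.089.

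**Figure D1:**
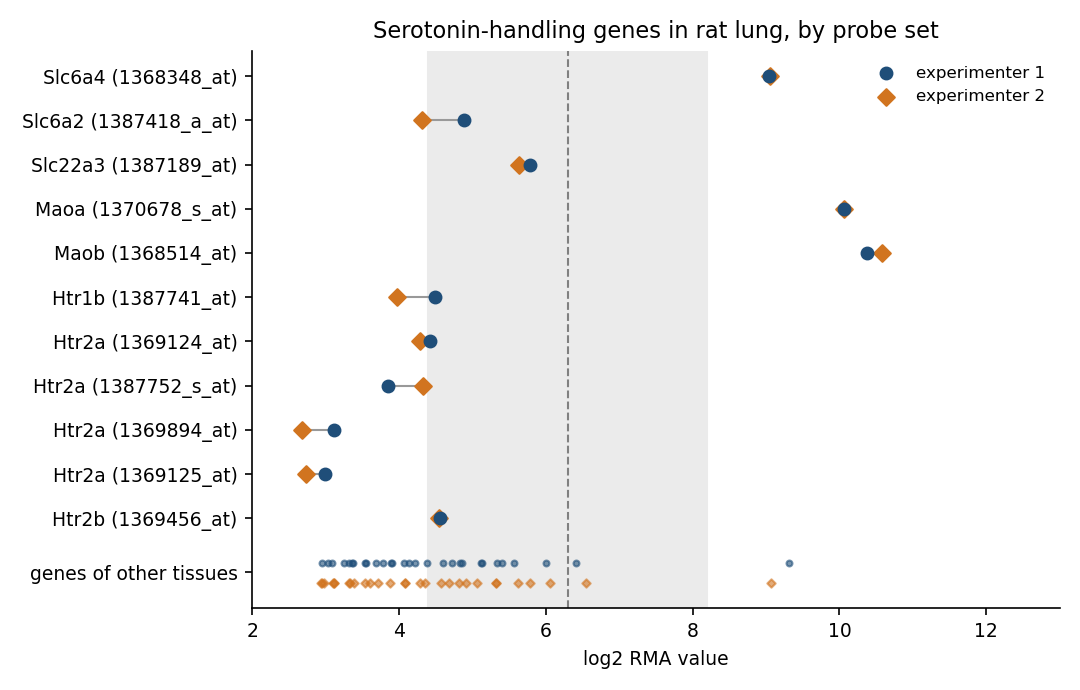
Log2 RMA values (horizontal axis) of the 11 probe sets on the array of experimenter 1 (circles) and experimenter 2 (diamonds), with the 29 genes of other tissues as small points at the bottom. The grey band runs between the quartiles of all probe sets and the dashed line is their median, each averaged over the arrays; *Slc6a4*, *Maoa* and *Maob* lie to the right of the band and all receptor probe sets near its left edge or below it.

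Of the 11 probe sets, 3 were above the median of both arrays and 8 were not. Of those 8, the 4 *Htr2a* probe sets were below the lower quartile of both arrays. Differences of at least 1.5-fold (0.585 on the log2 scale) were found for 0 of the 11, where 4.35% of all probe sets reached that size, and of at least 2-fold for 0, where 0.37% did. Among probe sets with a mean under the median, as 8 of the 11 had, 4.81% reached 1.5-fold. A count of 0 among 11 is near the background. *Slc6a2* was just inside the 1.5-fold limit.

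The median difference of the 11 was -0.13, against -0.052 for all probe sets, and 7 of 11 (63.6%) were lower for experimenter 2, against 58.7% of all; with the arrays rescaled 6 of 11 were. By size, 6 of the 11 differed by less than 0.25 and 5 by more; of all probe sets 32.8% differed by at least 0.25. Each of the 5, namely *Slc6a2*, *Htr1b* and 3 of the *Htr2a* probe sets, was below the median of both arrays. Over all probe sets that share was 34.7% for means below the median and 31.0% for means at or above it. These shares hide a change of spread with level. In 10 bins by mean, described below, the SD of the difference was 0.21 in bin 1, the dimmest. It was 0.32 in bin 4 and 0.23 in bin 10, the brightest. The 3 bright members differed by 0.21 at most.

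Differences were also set against probe sets of like level, after all were divided into 10 bins by mean. The SD of the difference was 0.30 in the bin of *Slc6a2*, *Htr1b*, *Htr2b* and the brighter pair of *Htr2a* probe sets, 0.21 in the dimmest bin, which held the other *Htr2a* probe sets, and 0.23 in that of *Maoa* and *Maob*. The central 95% of the bin of *Slc6a2* ran from -0.66 to 0.54. All 11 members lay inside the central 95% of their own bin. In absolute size the *Htr2a* probe set 1369894_at exceeded 94.3% of its bin, *Slc6a2* 93.6%, *Htr1b* 91.0%, the *Htr2a* probe set 1387752_s_at 88.7% and *Maob* 66.7%, while *Slc6a4* exceeded 4.70% and *Htr2b* 3.61%.

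**Figure D2:**
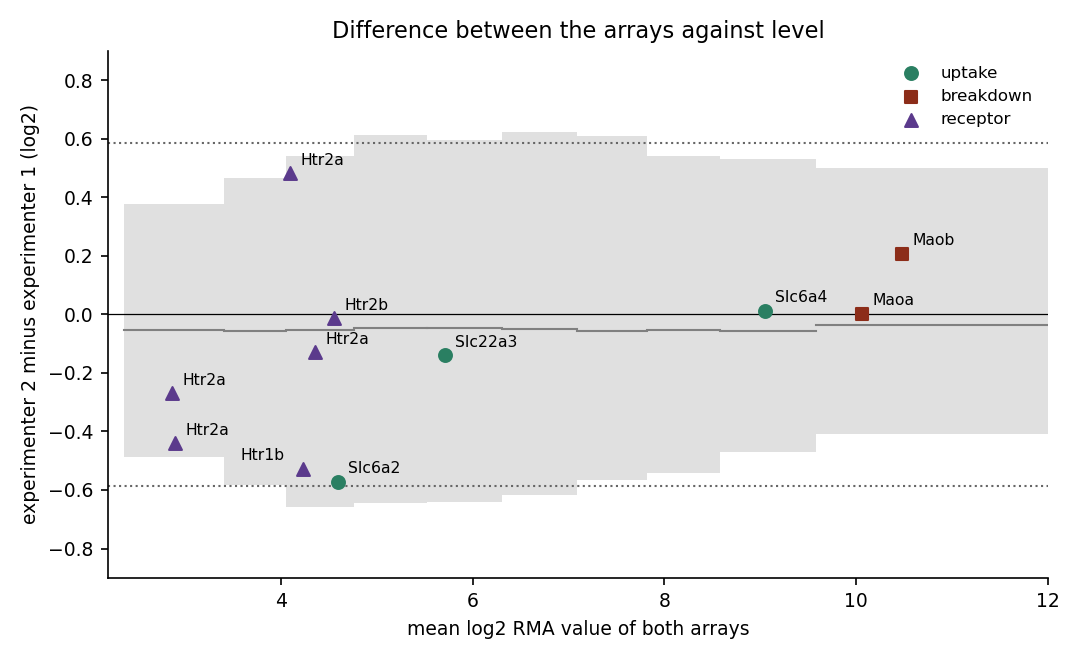
Difference between the arrays (vertical axis, log2, experimenter 2 minus experimenter 1) against the mean log2 RMA value of both (horizontal axis) for the 11 probe sets, by role. Grey blocks give the central 95% and grey lines the median of all probe sets in each of the 10 level bins, drawn up to a mean of 12, and dotted lines mark 1.5-fold; all 11 points lie inside the blocks and between the dotted lines.

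The rest of the amine pathway was read from 5 lists, with each gene represented by its brightest probe set. Of 61 genes listed 53 were measured, and 28 of these were above the median of both arrays. That median is over all probe sets, and 66.1% of all 14217 genes lay above it on both arrays by their brightest probe set, which is the share to set beside each such count below. Over the 53 genes the median difference was -0.041, against -0.049 for all 14217 genes, and 31 (58.5%) were lower for experimenter 2. Only *Dbh* was at least 1.5-fold apart, 1 of 53 or 1.89%, where 3.24% of all genes were.

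Breakdown genes gave bright signals, with 12 of 13 above the median of both arrays against 66.1% of all genes, 3 higher and 10 lower for experimenter 2 (4 and 9 with the arrays rescaled) and a median of -0.13. *Aoc3*, a copper amine oxidase of vessel walls, measured 12.09 and 11.96, *Sult1a1*, a phenol sulfotransferase, 12.01 and 11.79, and *Akr1a1*, an aldehyde reductase, 11.88 and 11.75. *Aldh2*, the mitochondrial aldehyde dehydrogenase that follows monoamine oxidase, measured 11.61 and 11.36, a difference of -0.26. The widest difference of the list was that of *Aldh7a1*, another aldehyde dehydrogenase, at 9.11 and 8.68. *Aoc3* differed by -0.13 by this probe set and by 0.28 by its other one. Thus the enzymes on both sides of the aldehyde step had bright signals on both arrays, as *Maoa* and *Maob* did.

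Of the other transport genes, 2 of 7 were above the median of both arrays and the median difference was -0.037 (0.014 after the loess correction). *Slc3a2*, the heavy chain that pairs with the amino acid carrier *Slc7a5*, measured 10.97 and 10.86, and *Slc7a5* itself, which carries tryptophan, 7.15 on both. *Slc47a1*, a proton exchanger that exports organic cations, measured 6.31 and 6.80, a difference of 0.49. *Slc18a1*, a vesicular amine carrier of endocrine cells, measured 3.19 and 3.03.

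Other serotonin receptors were dim, as the receptors above were: 0 of 11 was above the median of both arrays, and their median values were 4.33 and 4.32. The brightest probe sets were those of *Htr5a* (5.44 and 5.19), *Htr3b*, an ion channel subunit (4.86 and 4.94), and *Htr4* (4.62 and 4.77). *Htr1d* differed by 0.48 and *Htr1a* by -0.27. Second probe sets of *Htr3b* and *Htr4* differed by -0.43 and -0.33, opposite in sign to the 0.080 and 0.15 of the brightest ones.

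Of the genes that receptors or transporters act with, 10 of 13 were above the median of both arrays, near the share of 66.1% over all genes, and the median difference was -0.085. *S100a10*, an adaptor that binds *Htr1b* protein, measured 12.04 and 11.82, *Rhoa*, a GTPase that serotonin can be linked to by transglutaminase, 11.91 and 11.87, and *Bmpr2*, the receptor mutated in heritable pulmonary hypertension, 11.61 and 11.41. A second probe set of *Bmpr2* measured 4.09 and 3.95, and one of *Rhoa* 10.35 and 10.11. *Itgb3*, an integrin chain that associates with the serotonin transporter in platelets, measured 8.42 and 8.72, and *Gnaq*, the Gq alpha subunit, 5.43 and 5.13.

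**Figure D3:**
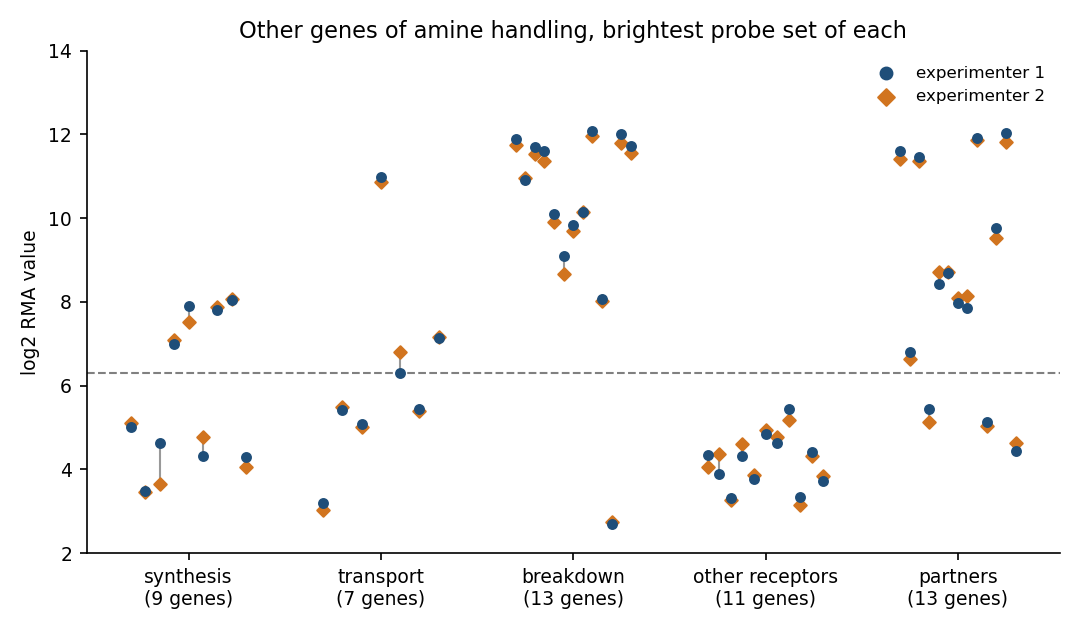
Log2 RMA values (vertical axis) of the 53 other amine genes on both arrays, by list (horizontal axis), with a line joining the values of each gene and the dashed line at the median of all probe sets averaged over the arrays. Breakdown genes lie above the dashed line except for 1 of 13, and all 11 other receptors lie below it.

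Synthesis genes were mixed, with 4 of 9 above the median of both arrays and a median difference of 0.027. *Qdpr*, *Pts* and *Gch1*, which make or recycle the cofactor tetrahydrobiopterin, measured 8.04 and 8.06, 7.81 and 7.89, and 7.91 and 7.53. A second probe set of *Gch1* measured 5.39 and 5.34. *Dbh*, which makes noradrenaline from dopamine, measured 4.64 and 3.65, a difference of -0.99, or 1.98-fold lower for experimenter 2. *Pnmt*, which makes adrenaline from noradrenaline, measured 4.33 and 4.78 and so differed the other way, by 0.45. *Th*, the first enzyme of catecholamine synthesis, named after its values were seen, measured 4.29 and 4.06.

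*Slc6a2* and *Dbh* are both known from sympathetic nerves, so markers of nerve and Schwann cells were read beside them. Of the 5 measured, 4 were lower for experimenter 2, and 3 of these by at least 1.5-fold. Of all genes 1.31% were lower by that much. The lists were chosen with earlier results of these data known, so these shares are a description and no test. *Sox10*, a Schwann cell transcription factor, measured 5.82 and 5.16, *Mbp*, myelin basic protein, 9.11 and 8.51, *Nefm*, a neurofilament chain, 3.85 and 3.19, and *Mal*, a myelin protein, 8.49 and 8.03. *Prph*, a filament protein of peripheral neurons, was higher at 4.91 and 5.43. *Nefm* lay under the medians of the genes of other tissues, 4.14 and 4.09, so its difference rests on dim signals. Summed on the linear scale, the 5 signals came to 1015 and 714, most of it from *Mbp* and *Mal*. Whether the *Mbp* and *Mal* signals came from nerve in whole lung was not tested, so these sums do not measure nerve tissue. RMA values do not reach 0, so no marker was at 0. *Slc6a2* and *Dbh* (percentiles 28.1 and 14.3) were dim, so presence and absence of their RNA cannot be told apart. The part of nerve tissue in the lower *Slc6a2* signal was not tested. In whole-lung RNA fewer cells of a type and less RNA per cell cannot be told apart.

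**Figure D4:**
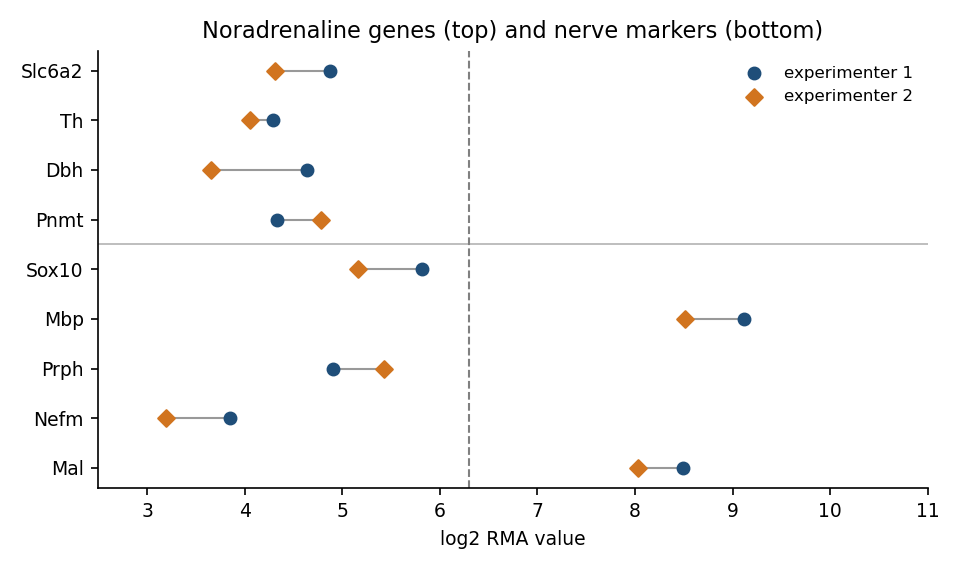
Log2 RMA values (horizontal axis) of the noradrenaline genes *Slc6a2*, *Th*, *Dbh* and *Pnmt* above the grey line and of 5 nerve markers below it, for experimenter 1 (circles) and experimenter 2 (diamonds), with the dashed line at the median of all probe sets averaged over the arrays. All but *Pnmt* and *Prph* are lower for experimenter 2, and *Mbp* and *Mal* alone lie above the dashed line.

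Markers of the cells that clear, store or answer to serotonin were also read. All 9 endothelial markers measured were above the median of both arrays, as 66.1% of all genes were. Their median difference was -0.19, against -0.049 for all genes. Of the 9, 7 were lower for experimenter 2, as 58.7% of all probe sets were. *Calcrl*, at 7.82 and 7.07, differed most, while *Kdr* (12.09 and 12.20) and *Ramp2* (12.47 and 12.48) were higher. *Slc6a4*, *Maoa* and *Maob* differed by 0.013, 0.0019 and 0.21. For *Slc6a4* and *Maoa* this is too small to carry a direction, as 4.48% and 0.873% of all probe sets differed by less. Any link of these genes to the endothelial markers was not tested. All 6 smooth muscle markers were above the median of both arrays and all 6 were lower for experimenter 2, with a median of -0.097; 5 were lower after median centring and 4 after the loess correction. Their summed linear signals were 6440 and 5691, most of it from *Tagln* and *Myh11*. The part of smooth muscle in the lower *Htr1b* signal was not tested. Of 5 platelet markers 2 were above the median of both arrays, *Pf4*, platelet factor 4, at 10.61 and 10.54 and *Itga2b*, an integrin chain, at 7.07 and 7.18. Of 8 mast cell markers 4 were, and of 6 neuroendocrine markers 0 were, with median differences of -0.082 and 0.027.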

How the data were processed

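Lung RNA was hybridised to 2 arrays, 1 per experimenter. The authors deposited log2 values made with RMA, per the submitters' processing notes; neither its version nor the arrays it normalized as a set is stated, and log base 2 was read from the range of the values. RMA hides any difference in total RNA, and the number of arrays limits the precision.

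Of 31099 probe sets 57 were controls. Of the rest 20826 had 1 symbol, 436 several and 9780 none; symbols were updated by Entrez identifier from the GRCr8 RefSeq table. A size of 1.5-fold or 2-fold stood in for a test. From each other amine list the text names up to 3 genes with the highest mean, up to 2 with the largest difference and any at least 1.5-fold apart. Members and lists were chosen with earlier results of these data known. Alternatives were median centring, loess (fraction 0.3), quantile normalization, a level filter, other probe set choices and other populations for percentiles. Python 3.11.15, numpy 2.4.6, pandas 2.3.3, statsmodels 0.14.6 and matplotlib 3.10.9 were used, and the scripts' scaling was tested on simulated data.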

Additional observations from a re-analysis of the deposited data

How the results depend on the processing

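No paired analysis was possible because only 1 array was made per experimenter, which also leaves none to omit. A difference was counted as moved when it shifted by more than 0.28, the SD over all probe sets, and a percentile when it shifted by more than 8.05 points, the widest gap between the arrays among the 11 probe sets. Of 77 recomputed values, 68 stayed within these limits and 9 moved. Some could not move, since the mean over probe sets returns the same value for the 7 genes with 1 probe set. Median centring and quantile normalization keep the order within an array, so the count above the median was fixed under them. The scalings shifted no member gene by more than 0.059, far under the limit of 0.28, so this tally says little about stability. The counts of 0 probe sets at 1.5-fold and at 2-fold and of 3 above the median were the same under each alternative run for them. The median difference of -0.13 ranged from -0.13 to -0.051 under the scalings, the probe set choices and the mean, and was 0.013 for the 3 probe sets whose mean reached the median. All 3 scalings turned the sign of *Htr2b* (0.022, 0.042 and 0.034) and of no other member gene, and of 0 of 33 other genes whose differences are given above. The second brightest *Htr2a* probe set gave 0.48 in place of -0.13. Among probe sets with 1 symbol, the mean percentile of *Slc22a3* was 34.0 in place of 42.5. Among 1 probe set per gene, it was 26.9, that of *Slc6a4* 75.8 in place of 85.2, *Slc6a2* 16.8 in place of 27.7, *Htr2b* 16.4 in place of 27.2, *Htr1b* 13.5 in place of 22.6, and the brighter *Htr2a* probe sets 14.6 and 12.1 in place of 24.4 and 20.5, since the populations hold fewer dim probe sets. Low signal limits every receptor value.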
